A study of Rattus norvegicus with 30 samples.

Results

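The locus of the glucocorticoid receptor gene Nr3c1 was described in prefrontal cortex (PFC) DNA from the interval chr18:32162198-32362579 of the rat assembly Rn6. This interval reaches 100 kb to each side of a site that the study places in an intron of Nr3c1 (chr18:32262198-32262579, 382 bp). Methylated regions were the overlapping peaks of 30 libraries of methylated DNA immunoprecipitation followed by sequencing (meDIP-seq). Of 604866 merged regions on chromosomes 1 to 20, 432103 had a called peak in at least 2 libraries, and the 45 of these that overlapped the interval were the members described here, the site included. The libraries came from Sprague-Dawley rats at postnatal day 22, with 10 animals in each of 3 prenatal groups. Dams of the prenatal alcohol exposure (PAE) group had free access to a liquid diet with 36% of its calories from ethanol. Each dam of the pair-fed (PF) group was matched to a PAE dam, whose intake set the portion of an ethanol-free liquid diet of equal calories (maltose-dextrin replaced the ethanol), so that PF dams could not eat freely. Dams of the control (CON) group ate a pelleted form of the control diet freely. Diets ran from gestation day 1 to 21. Each group held 5 dams, with 1 offspring labelled female and 1 labelled male per dam, so the 30 animals were not 30 independent litters. The DNA came from whole PFC tissue, in which neurons and glia cannot be told apart.

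The glucocorticoid receptor is a transcription factor that enters the nucleus when it binds corticosterone, the main glucocorticoid of the rat. In the PFC and other brain regions it takes part in the negative feedback that ends the stress response of the hypothalamic-pituitary-adrenal axis. DNA methylation (DNAm) of Nr3c1 has mostly been studied at the alternative first exons at its 5' end, where early-life conditions have been linked to receptor expression. In meDIP-seq an antibody against 5-methylcytosine pulls down methylated fragments, and a peak marks a stretch where these pile up. The height of a peak depends on the density of CpG sites as well as on how many of them are methylated, so it is compared between animals at 1 region rather than between regions as a level of DNAm.

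The value of an animal at a region was its normalized height, the highest pileup of its called peak per 1000000 filtered fragments. Animals without a called peak, and lower values, were set to a common floor of 0.438, the highest of the lowest called values of the libraries. The lowest called pileup in a library was 5 or 6 fragments, so the peaks say nothing of DNAm below that depth. Coordinates are those of the deposited peaks. The place of each member in an exon, intron or promoter was not analysed here, because the gene annotation used here belongs to a different assembly, GRCr8. In that assembly Nr3c1 spans 121726 bp on chromosome 18, less than the 200382 bp of the interval, and its protein-coding neighbours are Fgf1 and Pabpc2. If the gene has a like length in Rn6, the interval reaches beyond it. Its ends in Rn6 were not at hand, so members inside and outside the gene cannot be told apart.

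Filtered fragments numbered 11548314 to 16555049 per library, and autosomal peaks 103898 to 208631. The groups were spread unevenly over 5 sequencing lanes, with no PAE library on lane 7 and no PF library on lane 4. Peaks on the sex chromosomes went against the labelled sex in 18 of the 30 libraries. Chromosome X held 2.65% to 3.14% of the peaks of 7 libraries, where Y peaks numbered 4 to 11. In the remaining 23 it held 0.774% to 1.15%, with 38 to 87 Y peaks. Of the former, 5 were labelled male, and of the latter, 13 were labelled female. Labelled sex was kept as the labels give it, and results by labelled sex below are results by label. The group and dam labels have no such check in the peaks, so results by group also rest on the labels.

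Most members had a called peak in a minority of the animals, as did most regions elsewhere. Called in 2 to 14 animals were 36 members (80%), against 76.7% of all regions. Of the 45 members, 8 had a called peak in 2 animals, 10 in 3 to 5, 14 in 6 to 10, 7 in 11 to 20, 4 in 21 to 29, and 2 in all 30. A member was called in a median of 6 animals, the same as over all 432103 regions. Median length was 550 bp against 499 bp, and the median of the mean called heights was 0.739 against 0.763. The members covered 27138 bp, or 13.5% of the interval, and gaps between neighbours had a median of 3.75 kb and reached 12.3 kb. Windows of this length that held any region held a median of 34, fewer than the 45 here. Another 18 regions of the interval were called in 1 library and are not members. Their heights ran from 0.369 to 0.964 (median 0.718), and those of the 8 members called in 2 libraries from 0.43 to 1.03 (median 0.671), so height did not separate the regions just inside and just outside the rule. Across the 45 members, those called in more animals were also longer (Pearson's r = 0.53, Spearman's rho = 0.68), as a description only, since a region merged from more peaks can only grow. The distance from the site bore little relation to the number of animals (Spearman's rho = 0.16).

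**Figure D1:**
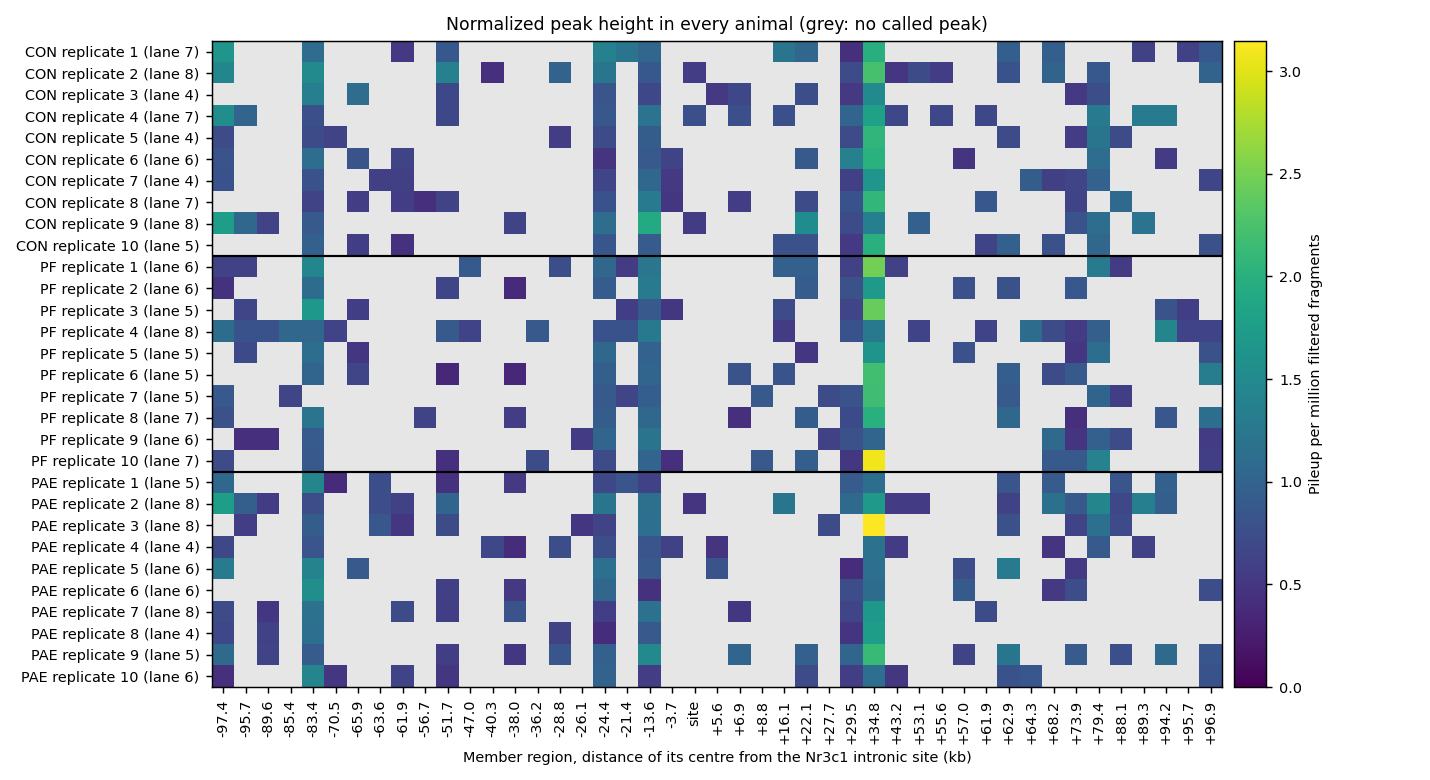
Normalized height (colour, pileup per 1000000 filtered fragments) at the 45 members, ordered by distance from the Nr3c1 intronic site (kb, columns), in each of the 30 animals (rows, by group, with the sequencing lane). Grey cells have no called peak; the members at −13.6 and +34.8 kb are filled in every row, while the site is filled in 3 CON rows and 1 PAE row.

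A called peak was present at the intronic site in 3 of 10 CON animals, 1 of 10 PAE animals and 0 of 10 PF animals. The CON heights were 0.772 in replicate 4, 0.576 in replicate 2 and 0.562 in replicate 9, and the PAE height was 0.477 in replicate 2. These peaks held 7 to 9 fragments at their summits, with a fold enrichment over the local background of 3.5 to 4.97 and a −log10 q-value of 2.57 to 4.68. The other 26 animals were at the floor, so the groups overlapped. Of the 4 animals with a peak, 3 were on lane 8, which held 6 libraries, and 1 on lane 7. The share of animals with a peak did not differ past the threshold in any pair of groups (Fisher's exact test, two-sided, n = 10 per group). The test counts littermates as independent, and CON replicates 4 and 9 came from 1 dam. For PF against CON p was 0.211 (0.632 adjusted over 3 pairs), for PAE against CON 0.582 (0.873 adjusted), and for PAE against PF 1 (1 adjusted). The study chose this site on the same animals, so its direction here is not independent evidence.

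On the scale of height with the floor, the site was at 0.498 ± 0.111 in CON, 0.442 ± 0.0121 in PAE and 0.438 in all PF animals (SD, n = 10 each). In the fit across all regions (limma, with labelled sex and lane), PF differed from CON at the site by −0.16 on the log2 scale (standard error 0.0786, 95% interval −0.32 to −0.003, unadjusted p = 0.0461, adjusted p = 0.774). PAE differed from CON by −0.13 (standard error 0.0758, adjusted p = 0.736) and from PF by 0.03 (standard error 0.0759, adjusted p = 0.982). None was past the false discovery rate (FDR) of 0.05. Because every PF animal was at the floor, the size of the PF difference depends on where the floor is set. Within the 4 lanes that held both PF and CON libraries, PF was lower in 2, the lanes with the CON peaks, and equal at the floor in 2.

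Of the 2 nearest members on each side of the site, 3 were also low and seldom called. The other, at −13.6 kb, was called in all 30 animals and is described below. The member at −3.7 kb (chr18:32258256-32259218) had a peak in 3 CON, 2 PF and 1 PAE animals, at heights of 0.439 to 0.643. The member at +5.6 kb (chr18:32267599-32268329) had one in 1 CON, 0 PF and 2 PAE animals (0.481 to 0.808), and the member at +6.9 kb (chr18:32268787-32269788) in 3 CON, 2 PF and 2 PAE animals (0.427 to 1.03). None of the 3 pairs of groups differed past the threshold at these 3 seldom called members (adjusted p of 0.852 to 0.992). The animals with a peak at the site were mostly not those with a peak at these 3 members. Of the 4, 0 had one at −3.7 or +5.6 kb, and 1, CON replicate 4, had one at +6.9 kb.

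The 2 members called in every animal lay on either side of the site, at −13.6 kb (chr18:32248164-32249374, 1211 bp) and +34.8 kb (chr18:32296537-32297756, 1220 bp). The +34.8 kb member was the highest of the locus, at a mean of 1.83 over all animals. Its height was 1.36 to 2.23 in CON (median 2), 1.03 to 3.07 in PF (median 2.09) and 1.11 to 3.15 in PAE (median 1.42). The 3 ranges overlapped, and the spread was narrowest in CON. Means were 1.87 ± 0.281 in CON, 2 ± 0.609 in PF and 1.61 ± 0.648 in PAE (SD, n = 10 each). The log2 difference of PAE from CON was −0.19 (95% interval −0.61 to 0.23), that of PAE from PF −0.27 (−0.69 to 0.16) and that of PF from CON 0.08 (−0.36 to 0.52), with adjusted p of 0.842, 0.969 and 0.955 in limma.

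At −13.6 kb the normalized height was 0.677 to 1.93 in CON (median 0.985), 0.877 to 1.31 in PF (median 1.05) and 0.443 to 1.48 in PAE (median 0.879). The lowest 3 of the 30 values were in PAE animals, and the groups overlapped. Means were 1.08 ± 0.346 in CON, 1.1 ± 0.15 in PF and 0.915 ± 0.324 in PAE. PAE differed from PF by −0.40 on the log2 scale (standard error 0.197, 95% interval −0.80 to 0.01, unadjusted p = 0.0528, adjusted p = 0.969), and PAE differed from CON by −0.25 (standard error 0.197, adjusted p = 0.781). Within the 3 lanes that held both groups, the mean PAE height was 0.63 against 1.25 in PF on lane 6, 1.16 against 1.27 on lane 8, and higher than PF on lane 5, at 1.04 against 0.96. Neither pair was past the threshold. Since both members were called in every animal, these are the comparisons of the locus that do not rest on the floor.

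The other of the 3 highest members by mean height over all animals, at −83.4 kb (chr18:32178657-32179231), was called in 29 animals, all but PF replicate 7. Its means were 0.989 ± 0.285 in CON, 1.09 ± 0.334 in PF and 1.16 ± 0.292 in PAE, and the log2 difference of PAE from CON was 0.13 (standard error 0.213, adjusted p = 0.907). The longest member, at −89.6 kb (chr18:32172171-32173462, 1292 bp), was called in 7 animals, 4 of them PAE, with heights of 0.423 to 0.795. The group means at these members were closer than the SD within the groups.

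**Figure D2:**
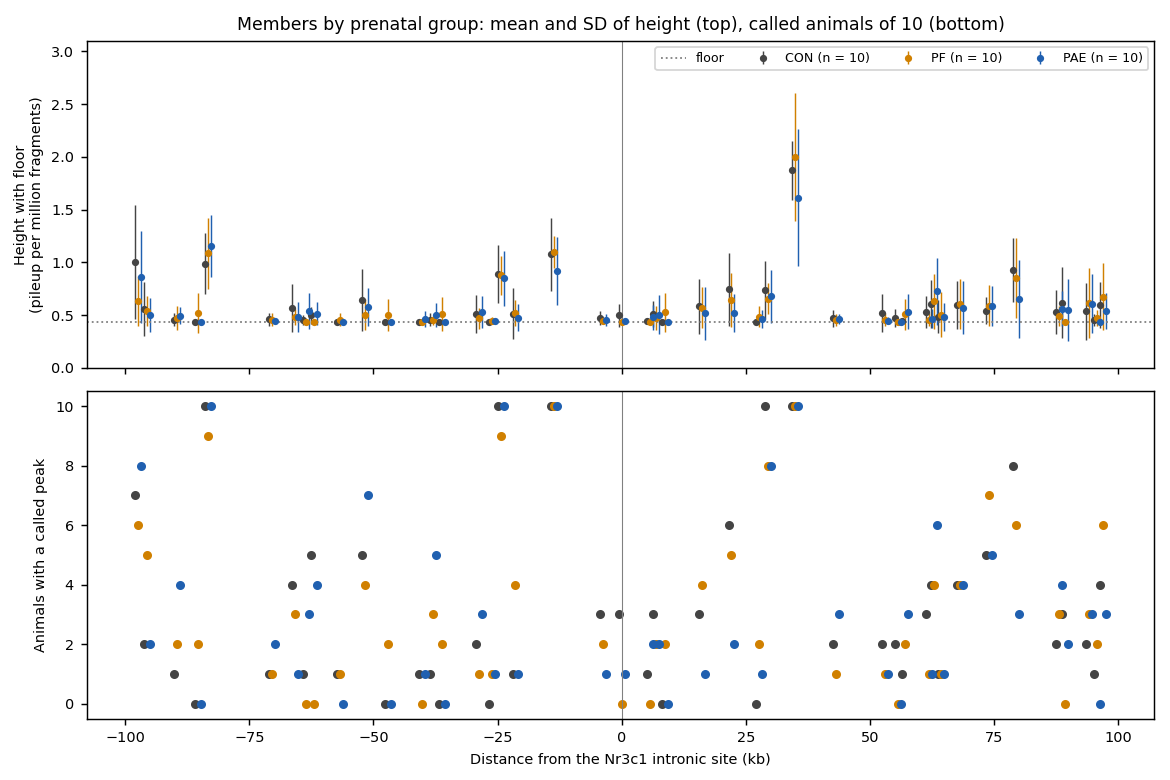
Top, mean height with the floor (pileup per 1000000 filtered fragments, bars are SD, n = 10 per group, dotted line is the floor) at each member against its distance from the intronic site (kb); bottom, how many of the 10 animals of each group had a called peak. Away from the members called in nearly all animals, most means lie close to the floor of 0.438 in each group.

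Over the locus as a whole, no member differed between prenatal groups at an FDR of 0.05 (limma, p-values adjusted over all 429624 regions tested). The lowest adjusted p of a member was 0.736 for PAE against CON, 0.774 for PF against CON and 0.969 for PAE against PF. Over all regions 1 was past this threshold between PAE and CON (0.000233% of those tested), and 0% were past it for PF against CON and for PAE against PF. At an unadjusted p under 0.05, 2 of the 45 members (4.44%) were counted for PAE against CON, where 6.6% of all regions were. For PF against CON the count was 2 (4.44%) against 5.86%, and for PAE against PF 4 (8.89%) against 4.09%. Of the latter 4, 3 were members only through peaks in 2 PF animals, which fixed their direction. Of the 2 for PF against CON, 1 was the site, which the study chose on the same animals. The other, at −36.2 kb, was likewise a member only through peaks in 2 PF animals. Signs were counted over members with a called peak in either group of a pair. The fitted difference was below 0 at 23 and above 0 at 18 of 41 members for PAE relative to CON, at 25 and 20 of 45 for PF relative to CON, and at 22 and 22 of 44 for PAE relative to PF. The median log2 difference over these members was −0.04, −0.02 and −0.003 in these 3 pairs, against −0.04, −0.02 and −0.02 over all regions. The pairs share animals, since each group enters 2 of them.

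**Figure D3:**
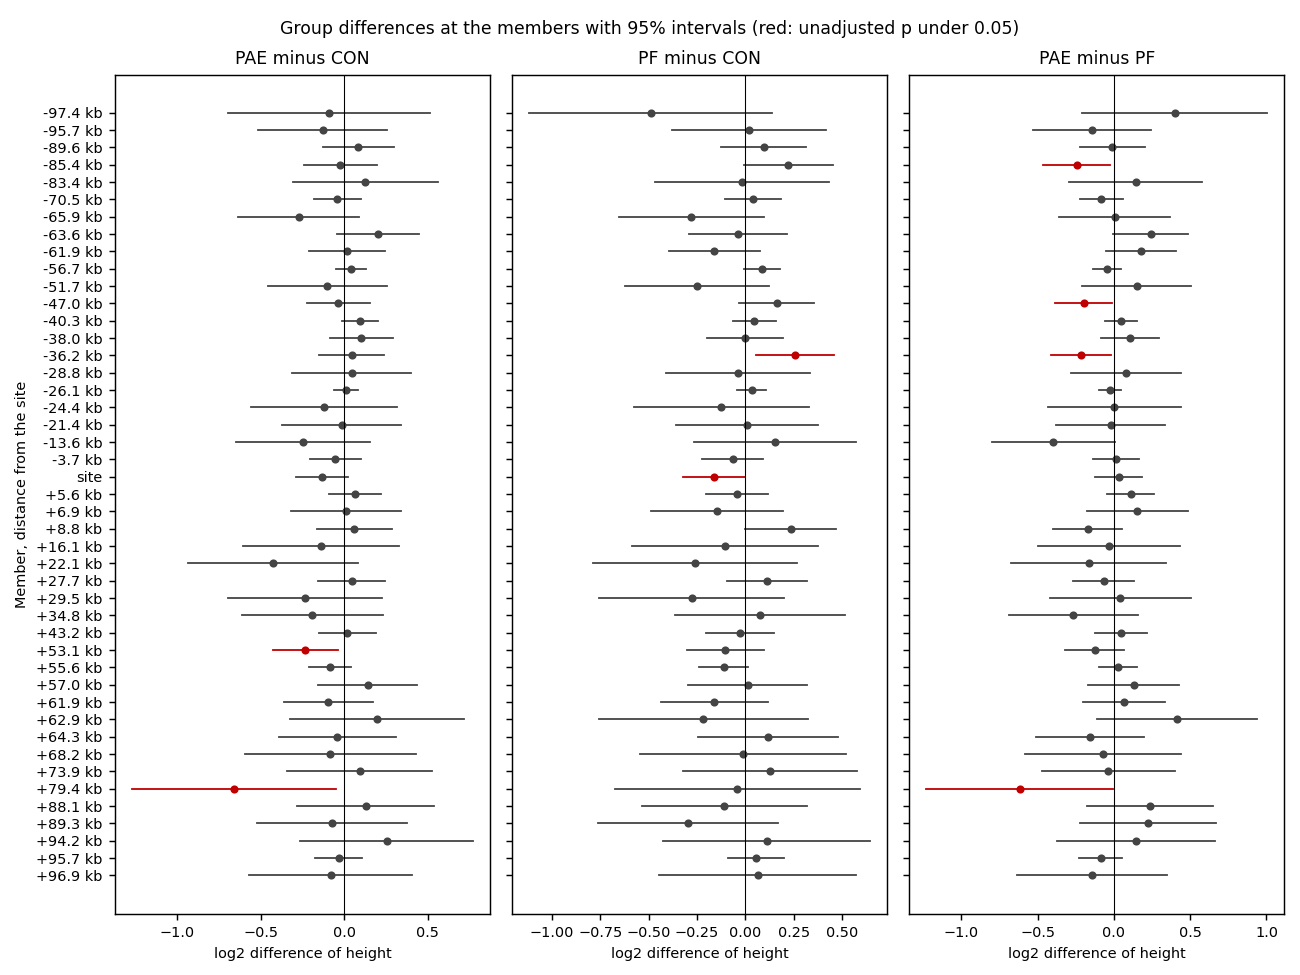
Log2 difference of normalized height with 95% intervals at the 45 members (rows, by distance from the site) for PAE minus CON, PF minus CON and PAE minus PF, from the limma fit with labelled sex and lane. Red marks an unadjusted p under 0.05, which 2, 2 and 4 members reached, and none was past the FDR.

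The 2 members with an unadjusted p under 0.05 between PAE and CON lay on the same side of the site, at +79.4 and +53.1 kb. At +79.4 kb (chr18:32341370-32342247, 878 bp) 8 CON, 6 PF and 3 PAE animals had a called peak. Called heights were 0.752 to 1.29 in CON, 0.955 to 1.39 in PF, and 0.894, 1.15 and 1.43 in PAE replicates 4, 3 and 2. The called heights of the 3 groups overlapped. The means with the floor were 0.927 ± 0.302 in CON, 0.853 ± 0.382 in PF and 0.654 ± 0.369 in PAE. The log2 difference of PAE from CON was −0.66 (standard error 0.299, 95% interval −1.27 to −0.05, unadjusted p = 0.0356, adjusted p = 0.736), and the one from PF was −0.62 (standard error 0.3, unadjusted p = 0.0483, adjusted p = 0.969). That of PF from CON was −0.04 (95% interval −0.68 to 0.59). By mean height with the floor, PAE was lower than CON within 3 of the 4 lanes with both groups, and lower than PF within 2 of 3. On lane 8 the means were 1 in PAE, 0.994 in CON and 0.955 in PF, and there only the mean of log2 heights was lower in PAE. The member was named for its small p, so these values are a description.

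The 3 PAE animals with a peak at +79.4 kb were labelled female. Their sex chromosomes went against that label. Chromosome X held 0.827%, 1.14% and 1.09% of the peaks of replicates 2, 3 and 4, with 67, 60 and 53 Y peaks. The 5 PAE animals labelled male had the same pattern, so the label does not separate these PAE animals by sex-chromosome peaks. Among animals labelled male, 4 of 5 CON, 3 of 5 PF and 0 of 5 PAE had one. The log2 difference of PAE from CON was −1.15 (standard error 0.366, unadjusted p = 0.00803, adjusted p = 0.695 in limma) by the male label and 0.11 (standard error 0.542, adjusted p = 1) by the female label. The test of the difference between labels, female minus male, gave 0.82 (standard error 0.551, unadjusted p = 0.148, adjusted p = 0.92).

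At +53.1 kb (chr18:32315084-32315868, 785 bp) a peak was called in 4 animals. The heights were 0.963 in CON replicate 9, 0.72 in CON replicate 2, 0.636 in PF replicate 4 and 0.545 in PAE replicate 2. All 4 were on lane 8, where 4 of 6 libraries had a peak, against 0 of 24 on the other lanes. The log2 difference of PAE from CON was −0.23 (standard error 0.094, unadjusted p = 0.0195, adjusted p = 0.736), and within lanes it differed from 0 in 1 of 4. Without CON replicate 9 the difference was −0.13 (unadjusted p = 0.0683). Lane itself was associated with this member at an unadjusted p of 0.000415 (F = 7.09, adjusted p = 0.107), and with 1 other member, at −51.7 kb (p = 0.0152). These were the 2 of 45 members with an unadjusted p under 0.05 for lane, against 12% of all regions. For lane, 0 members were past the FDR, and 0.0205% of all regions were.

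Of the 45 members, 5 were called in a single group, where 7.35% of all regions were. Of these, 4 were called in PF animals, each in 2 of them (2.23% of all regions were called in PF alone). All 5 were among the 8 members called in 2 libraries, and of all regions called in 2 libraries 31.8% were called in a single group and 9.75% in PF alone. They lay at −85.4 kb (chr18:32176787-32177141), −47.0 kb (chr18:32215222-32215535), −36.2 kb (chr18:32226078-32226390) and +8.8 kb (chr18:32271054-32271416), with called heights of 0.655 and 1.03, 0.636 and 0.897, 0.732 and 0.875, and 0.874 and 0.878. The fifth, at +55.6 kb (chr18:32317789-32318142), was called in 2 CON animals (0.576 and 0.686), and 0 members were called in PAE animals alone, against 3.2% of all regions for CON alone and 1.91% for PAE alone. The remaining 40 members were called in 2 groups (10 members) or all 3 (30 members). Each of these 4 PF members passed the rule of 2 libraries only through its 2 PF peaks. The rule thus fixed the direction of their PF differences, which are given as a description only. These PF members account for 3 of the 4 unadjusted p under 0.05 between PAE and PF. PAE differed from PF by −0.24 on the log2 scale at −85.4 kb (unadjusted p = 0.0311), −0.20 at −47.0 kb (p = 0.039) and −0.21 at −36.2 kb (p = 0.0321), each with an adjusted p of 0.969 in limma. That of PF from CON was 0.26 at −36.2 kb (standard error 0.0986, unadjusted p = 0.014, adjusted p = 0.774) and 0.23 at +8.8 kb (unadjusted p = 0.0518).

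PF replicate 4 supplied 1 of the 2 peaks at 3 of these 4 members, all but the +8.8 kb one. Without it, the differences of PAE from PF were −0.06 at −85.4 kb, −0.14 at −47.0 kb and −0.07 at −36.2 kb (unadjusted p of 0.289, 0.143 and 0.271), and the count of members with an unadjusted p under 0.05 went from 4 to 1. The fitted differences at such members also carry the lane term. At the 4 members without a called peak in any CON or PAE animal, the fitted difference of PAE from CON ran from −0.03 to 0.06 although all values were at the floor.

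**Figure D4:**
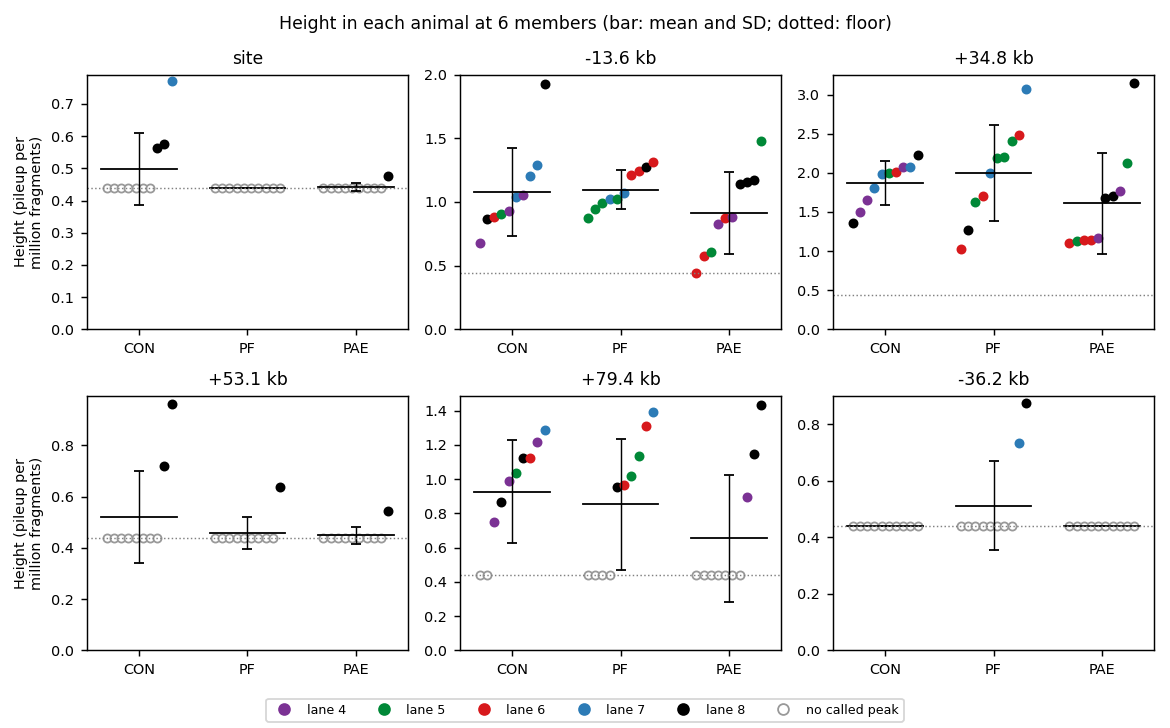
Normalized height in each animal (points, coloured by lane, open where no peak was called and the floor of 0.438 was used) at the intronic site and 5 other members, with mean and SD by group (n = 10). The −13.6 and +34.8 kb members are measured in every animal and overlap between groups. At +79.4 kb 8 CON, 6 PF and 3 PAE animals had a called peak. The site and the remaining members consist of a few called values above the floor, which at +53.1 kb are all from lane 8.

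Within the labelled sexes no member was past the FDR either, where 0% of all regions were by the female label, and by the male label 0%, 0.000259% and 0.000259% for PAE against CON, PF against CON and PAE against PF. In the fit of libraries labelled female, 43 members could be tested, with 2, 5 and 5 at an unadjusted p under 0.05 for PAE against CON, PF against CON and PAE against PF. Over all regions these shares were 7.07%, 6.88% and 5.32%. In the fit of libraries labelled male, 40 members could be tested, with 2, 0 and 4, against 3.79%, 3.68% and 3.16% of all regions. The difference of the group effect between labelled sexes had an unadjusted p under 0.05 at 3, 2 and 4 of the 45 members (4.74%, 4.77% and 2.91% of all regions), with a lowest adjusted p of 0.92, and 0% of all regions were past the FDR. At the site, PF differed from CON by −0.22 on the log2 scale by the female label and by −0.03 by the male label (standard errors 0.214 and 0.0542), and the test of the difference between labels gave an adjusted p of 0.953. By the female label, CON and PF libraries shared only lane 8, with 1 of each. With lane in the fit, that contrast thus holds few direct comparisons. By the male label they shared lanes 5, 6 and 7. Since 18 libraries went against their label on the sex chromosomes, the fit of both labels was repeated with the 12 libraries that matched it (3 CON, 3 PF and 6 PAE) and no sex term. Of the 37 members that could be tested, 0 were past the FDR in each pair, with 2, 2 and 3 at an unadjusted p under 0.05. The +79.4 kb member kept its direction there, at a log2 difference of PAE from CON of −1.32 (adjusted p = 0.594).

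The number of members called per animal overlapped between the groups. A CON animal had a called peak at 12 to 17 of the 45 members (14.5 ± 1.84, SD, n = 10), a PF animal at 11 to 24 (14.1 ± 3.78) and a PAE animal at 8 to 22 (13.9 ± 3.93). Counted over animals and members, 145, 141 and 139 of 450 possible calls were made in CON, PF and PAE. The highest values in PF and PAE were both on lane 8. The library with the most autosomal peaks, CON replicate 2 (208631), had 17 members called. Libraries on lane 8 had 12 to 24 members called (median 16) and those on lane 4 had 8 to 14 (median 12), and autosomal peaks numbered 109013 to 208631 on lane 8 and 103898 to 139146 on lane 4. Relative to 1000 autosomal peaks, 0.077 to 0.13 members were called per library. The group medians of this ratio were 0.101 in CON, 0.0944 in PF and 0.1 in PAE, closer than the range within each group. The part of lane and of peak number in these counts was not tested.

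**Figure D5:**
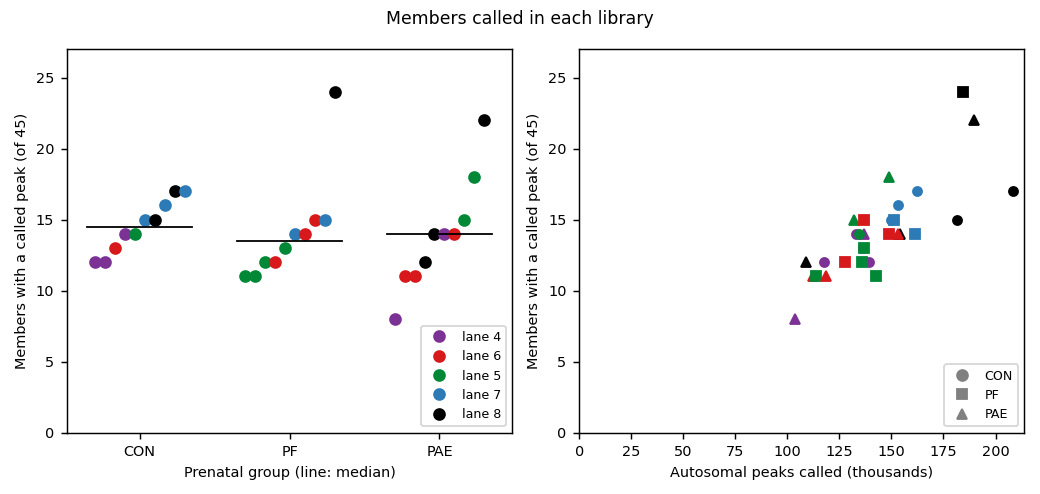
Members with a called peak, of 45, in each library by prenatal group (left, line is the median) and against the autosomal peaks of the library in units of 1000 (right), with points coloured by lane. PF replicate 4 with 24 members and PAE replicate 2 with 22, both on lane 8, lie above the other 28 libraries, which have 8 to 18.

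The members whose called animals were most like those of the site were +53.1, +55.6 and +89.3 kb. Likeness was the number of animals called at both regions divided by the number called at either, over the 30 animals. It was 0.6 at +53.1 kb (3 shared animals of 5) and 0.5 at +55.6 kb (2 of 4). It was also 0.5 at +89.3 kb (chr18:32351465-32351870), where 3 CON, 0 PF and 2 PAE animals had a peak, with heights of 0.606 to 1.36. Of the other 44 members, 15 shared no animal with the site. Of the 4 animals called at the site, 3 were on lane 8, so likeness in these animals and likeness in lane cannot be told apart.

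Other genes of glucocorticoid signalling could hardly be placed in the peaks without an annotation of Rn6. Of a list of 33 genes for steroid and stress-peptide receptors, chaperones, coregulators, steroid enzymes and receptor targets, 1 had a position in the sources used here, Ncoa1, a coactivator that binds the glucocorticoid and other steroid receptors. A region at Ncoa1 (chr6:28730585-28731211) had a peak in 4 CON, 0 PF and 2 PAE animals. Its means with the floor were 0.603 ± 0.296 in CON, 0.438 in all PF animals and 0.463 ± 0.0651 in PAE. On the log2 scale the difference was −0.38 for PAE from CON (standard error 0.152, unadjusted p = 0.0196, adjusted p = 0.736) and −0.39 for PF from CON (standard error 0.158, unadjusted p = 0.0193, adjusted p = 0.774 in limma). It was 0.01 for PAE from PF (95% interval −0.30 to 0.33). The study chose this region on the same animals, so its direction is not independent evidence.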

How the data were processed

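DNAm was measured by meDIP-seq in the PFC of 30 rats, grouped by the labels. The authors used BWA for alignment to Rn6 and samtools to discard duplicates, unpaired reads and mapping qualities below 10. Peaks were then called library by library with MACS2 2.1.4 (version per the file headers) on paired ends, with no control sample and a q-value limit of 0.05. The deposited signal is the pileup, meaning how many fragments gave coverage at the summit, unscaled for depth. The deposited fold enrichment is a ratio to the local background of the same library, and served as an alternative measure. The deposited −log10 q-value set a stricter peak threshold. The authors' read counts per region were not used here.

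Rows of 1 peak were joined, keeping the highest pileup, and peaks overlapping by at least 1 bp were merged over libraries. Log2 heights with the floor of 0.438 entered limma 3.58.1 (R 4.3.3, trended prior variance) with group, labelled sex and lane, or group and lane within a labelled sex, and the Benjamini-Hochberg adjustment covered every tested region. Regions whose values did not vary were left out, which leaves 429624 tested. Called peaks at the site were compared with Fisher's exact test in scipy 1.17.1 under Python 3.11.15. The fit was tested on simulated heights of regions called in most libraries, without lane or litter effects. That setting differs from most members, where few animals had a peak. Filtered fragments numbered 11548314 to 16555049 per library, and a pileup of a few fragments limits the precision of each height. The named members were the site, the 2 nearest on each side, those called in every library, the 3 highest, the longest, the 3 with the smallest p in each pair of groups, and the 3 most like the site in called animals. The members, lists and tests were chosen with earlier results of these data known. Members named outside this rule, among them −51.7 and −40.3 kb, were chosen after their values were seen. Sequences of the members were not used here, because no Rn6 genome was at hand.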

Additional observations from a re-analysis of the deposited data

Results flagged for a closer look

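Of 18 groups of 4 to 10 values examined (called heights at the named members, and members called and mean height per library, by prenatal group), 3 held a value far from the others, where chance gives about 1 in 20 groups. At −13.6 kb the highest CON height was 1.93, in replicate 9 on lane 8, and the next was 1.29. Without this library the log2 difference of PAE from CON there was −0.14 in place of −0.25 (unadjusted p = 0.481 and 0.221 in limma). At +34.8 kb the highest PAE height was 3.15, in replicate 3 on lane 8, and the next was 2.12. Without this library PAE differed from CON there by −0.30 in place of −0.19 and from PF by −0.36 in place of −0.27 (unadjusted p = 0.123 and 0.068 in limma). In PF, replicate 4 on lane 8 had a called peak at 24 members, and the next library at 15. This library is also the one with a peak at 3 of the 4 members called in PF animals alone. Over all animals, lane had an unadjusted p of 0.142 at −13.6 kb (adjusted p = 0.584) and 0.329 at +34.8 kb (adjusted p = 0.722) in limma. The part of lane in the single high values and in the number of members called was not tested.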

How the results depend on the processing

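In the fits of both labels, 0 members were past the FDR in each pair of groups under the 15 alternatives and in 30 fits leaving out 1 animal at a time, and the lowest adjusted p was 0.116. The count of members at an unadjusted p under 0.05 moved by over 1.5 times as follows. For PAE against CON it was 1 with no lane term, with 0 and a pseudocount of 0.1, with fold enrichment, median ratio scaling and quantile normalization, and 0 with Fisher's exact test and with only the 2 members called in all animals. For PF against CON it was 7 with the lane effect removed before the fit, 1 with no lane term, no labelled sex term, median ratio scaling, quantile normalization, a minimum of 3 libraries and Fisher's exact test, and 0 with only members called in all animals. For PAE against PF it was 1 with no lane term, each library's own floor, quantile normalization and only members called in all animals, 2 with median ratio scaling and a minimum of 3 libraries, and 0 with Fisher's exact test. Leaving out 1 animal gave 0 to 3, 1 to 4 and 1 to 6 members, in these 3 pairs. The libraries whose removal moved a count by over 1.5 times were CON replicates 5, 6, 9 and 10, PAE replicates 1 and 7 and PF replicate 8 for PAE against CON (to 0 without CON replicate 9, otherwise to 1). For PF against CON they were CON replicates 4 and 7, PAE replicates 3, 6, 7, 9 and 10 and PF replicate 4 (to 1), and CON replicate 8 and PF replicates 6 and 9 (to 4). For PAE against PF they were PF replicate 4 (to 1), and PAE replicates 2, 6 and 10 and PF replicate 1 (to 2). With only members called in all animals, the median log2 difference was −0.22, 0.11 and −0.33, since 2 members remained; it moved by less than the spread between animals elsewhere.

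Within the libraries labelled female, 2 members were past the FDR for PAE against CON and 9 for PF against CON with the lane effect removed before the fit, where 9.92% and 19.7% of all regions were, a fit that does not count the lane terms in its degrees of freedom. The only CON library of that label on lane 8 was CON replicate 2. Without it, 2 members were past the FDR in each of these pairs (0 to 2 over the animals left out). They lay at −40.3 and −3.7 kb, with 1.94% and 1.46% of all regions. No lane then held both CON and PF libraries of that label. At −40.3 kb only PAE replicate 4 (0.687) was above the floor, and every CON and PF value was at it. The fitted PF difference from CON there was still 0.65 on the log2 scale, so it carries the lane term and is not a difference of heights.

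Signs turned at +53.1 kb for PAE against CON (0.024), and for PF against CON at −13.6 kb (−0.11) and +34.8 kb (−0.16), where a peak had to cover at least 50% of the region. With the 12 libraries that matched their labelled sex, an alternative chosen after seeing the data, they turned at the site for PAE against PF (−0.019) and at +34.8 kb for PF against CON (−0.38) and PAE against PF (0.14). Leaving out 1 animal gave −0.015 to 0.054 at the site for PAE against PF and −0.030 to 0.21 at +34.8 kb for PF against CON. A random effect of dam (consensus correlation −0.0172) changed no count. The cause was not tested. Replicate numbers only name the animals, so animals of different prenatal groups could not be paired. Littermates could be paired by dam, but the tests of the difference between labelled sexes did not do so. A floor of 5 to 6 fragments limits what could be detected where few animals had a peak.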

Other observations

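Littermates of the 15 dams, 1 of each labelled sex, often differed in their called peaks. Over the 45 members, both littermates had a peak in 114 of 675 pairs, 1 of them in 197 and neither in 364. At the site both littermates of 1 dam (CON replicates 4 and 9) and 1 littermate of 2 dams had a peak. At +79.4 kb both had one in 5 dams, 1 in 7 and neither in 3.

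The peaks of the locus were of modest enrichment. At +34.8 kb the fold enrichment over the local background had a median of 6.91 and reached 10.5, with a pileup of 9 to 44 fragments and a −log10 q-value of up to 29. At −13.6 kb the median was 5.3, with 6 to 24 fragments. At +79.4 kb it was 4.91, with 10 to 21 fragments.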
